A study of Homo sapiens with 42 samples.

Results

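The comparison described here is that of cytokine medium (CM) with control medium (NCM) after 3 h in Hep3B cells, an established human hepatoma line that is used as a model of hepatocytes. Its members are the 6 arrays that carry the 3 h time in their title, 3 from CM and 3 from NCM, out of 42 arrays in the whole series. They form 3 of the 21 pairs, named S1, S2 and S3 after independent experiments. The series measured total RNA in both media at the start (T0), at 15 and 30 min and at 1, 3, 6 and 16 h, with 1 CM and 1 NCM culture per experiment and time split from the same trypsinized cells. CM is described as rich in pro-inflammatory cytokines, and the cytokines in it are not named in the sources used here. Every group is Hep3B cells in CM or in NCM for the stated time, and the array titles name no other agent or genotype. Results from 1 hepatoma line need not hold for other liver cells. The question asked of the 3 h arrays is which transcripts differed between the media at that time.

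Cytokines such as interleukin-1 and tumor necrosis factor act on hepatocytes through receptors and adaptor proteins that free the transcription factor NF-kappaB from its inhibitors in the cytoplasm. NF-kappaB then binds kappaB sites in promoters of chemokines, cytokines and its own inhibitors, and the newly made inhibitors return it to the cytoplasm. Interleukin-6 and its relatives act through the shared receptor chain gp130, JAK kinases and STAT3. In the liver both routes feed into the acute phase response, in which hepatocytes change their output of plasma proteins.

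At 3 h no probe passed the threshold, an adjusted p of 0.05 by limma: 0 of 13824 probes were called (0%), and 450 (3.26%) had an unadjusted p under 0.05. Of the same probes, 700 did at T0, 492 at 15 min, 485 at 30 min, 605 at 1 h, 520 at 6 h and 658 at 16 h. The count was thus lowest at 3 h and below that at the start. The SD of the differences over probes was 0.271 at 3 h and 0.277 to 0.303 at the other times. The named genes with the smallest p among those higher in CM were NFKB1, IGFBP1 and IL32, and among those lower in CM they were RANBP1, RDH14 and FOXA1. Differences below are log2 intensity in CM less that in NCM, from limma on 42 arrays with each pair as a block, so the SE and p rest on a spread pooled over all times. Single array values are normalized linear intensities on a scale where the mean of each array is near 1. A gene is represented by the probe with the highest mean log2 intensity. Since no adjusted p passed, the values below describe these 6 arrays, and none of the named genes is called different between the media. The limma adjusted p was 1.00 for the representing probe of each named gene other than NFKB1, IGFBP1 and IL32, for which it is given. Of 134 genes and probes followed over the alternative settings, 105 turned or moved by more than 1.5 times under at least 1 of them, and 79 did when 1 replicate was left out. Counts of genes in a list stand beside these shares of all 5631 genes: 13.5% were higher in CM in all pairs and 12.6% lower, 2.61% had all CM arrays above all NCM arrays and 2.54% below, and 1.7% had an unadjusted p under 0.05 with a positive and 1.63% with a negative difference. In such bulk RNA, fewer cells of a type and less RNA per cell cannot be told apart.

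The pairs did not scatter equally. The S1 pair stood apart, since its arrays correlated with the S2 and S3 arrays of 3 h at 0.763 to 0.824, where S2 and S3 arrays correlated with each other at up to 0.926 and partners within a pair at 0.905 to 0.957. Across the 13824 probes, which are not independent of each other, the pair differences correlated at r = 0.00499 between S1 and S2, 0.00156 between S1 and S3 and 0.0932 between S2 and S3. Their SD was 0.569 in S1, 0.399 in S2 and 0.381 in S3, so S1 scattered most. Without S1 the limma fit gave 0 called probes and 338 whose unadjusted p was below 0.05, and the differences were 1.21 for NFKB1, 1.58 for IGFBP1, 0.89 for IL32, 0.62 for CXCL2 and -0.95 for FOXA1. The differences of probes with neighbouring numbers correlated at 0.291. After neighbour centring, which removes from every probe the average deviation of nearby probe numbers on that array, NFKB1 had 1.07, IGFBP1 1.28 and IL32 0.74, with 0 calls and 522 probes whose unadjusted p was below 0.05. The plot of pair differences shows a cloud with little slope. The labelled genes lie at its edge, where the way they were chosen puts them.

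**Figure D1:**
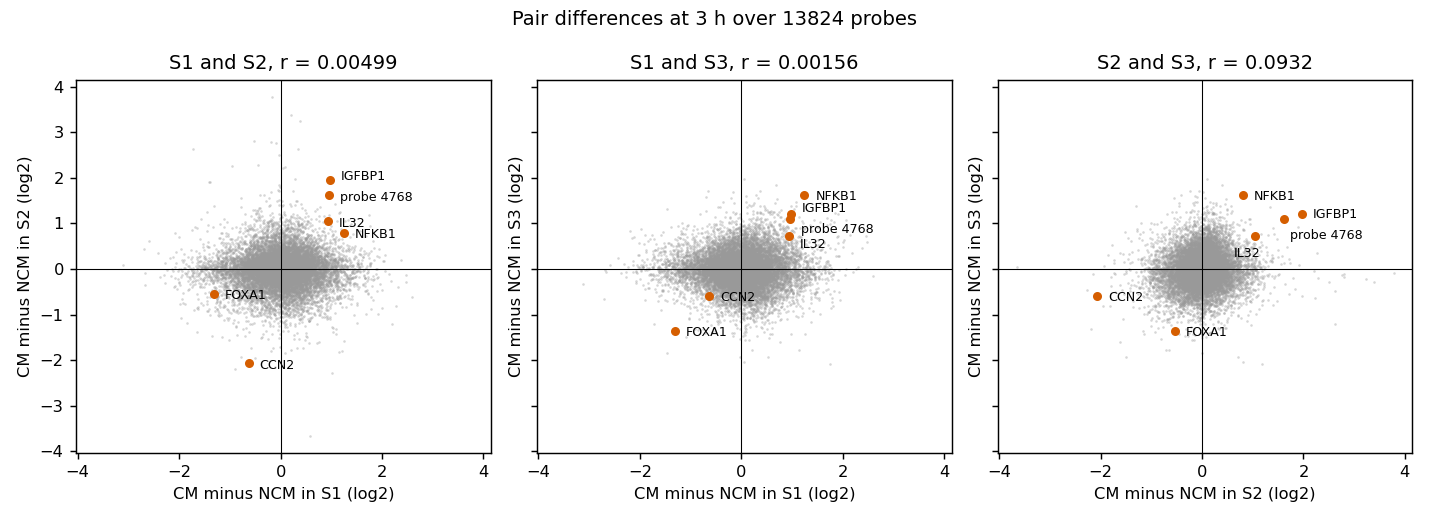
CM minus NCM (log2) of each of 13824 probes in 1 pair against another pair at 3 h, with 5 genes and probe 4768 in orange. The cloud shows little slope in any panel. NFKB1, IGFBP1, IL32 and probe 4768 lie in the upper right and FOXA1 and CCN2 in the lower left of all 3 panels. The naming rule took the 5 genes from those with 3 of 3 pairs in 1 direction, which fixes their quadrant. Probe 4768 was taken for its smallest p.

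NFKB1, the gene of the NF-kappaB precursor p105 and its DNA-binding product p50, had the smallest p of all probes that name 1 gene. Its CM arrays read 1.03, 1.35 and 1.57 in S1, S2 and S3, and its NCM arrays read 0.433, 0.775 and 0.508. Every CM array lay above every NCM array, which 147 of 5631 genes (2.61%) showed in this direction. The difference was 1.22 with an SE of 0.25 and a 95% interval from 0.71 to 1.74, equal to 2.34-fold, with a limma adjusted p = 0.462. The other NFKB1 probes had 0.18 and 0.15, each higher in CM in 2 of 3 pairs, so the difference of NFKB1 was seen on 1 of its probes, and the mean of its probes was 0.52. The remaining 4 subunit genes, NFKB2, RELA, RELB and REL, were not analysed here.

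The inhibitors and feedback regulators of NF-kappaB had 9 of 13 listed genes measured, with a median difference of 0.17 against -0.00 over all 5631 genes. In this list 6 genes lay above 0, 3 were higher in CM in all pairs where 13.5% of all genes were, and 1 had an unadjusted p under 0.05 where 1.7% of all genes had one in this direction. When the dimmer 50% of probes were left out, the median of the members left was -0.20. NFKBIA was among the genes left out there, so the 2 medians cover different genes. NFKBIA encodes IkappaB alpha, which holds NF-kappaB in the cytoplasm and is one of its direct targets. It read 1.01, 0.835 and 0.543 in CM and 0.592, 0.403 and 0.451 in NCM. CM was higher within every pair of NFKBIA, and the groups overlapped since the S1 control lay above the S3 cytokine array. The NFKBIA difference was 0.69 (SE 0.27). TNFAIP3, which encodes the ubiquitin-editing enzyme A20 that limits NF-kappaB signalling, had 0.42 (SE 0.30) with CM higher in 3 of 3 pairs. TNIP1, a partner of A20, had the lowest value of the list at -0.52 (SE 0.27), with 0.520, 0.461 and 0.501 in CM and 0.719, 0.702 and 0.695 in NCM. Its groups did not overlap, in the direction opposite to NFKBIA, as for 143 of 5631 genes (2.54%).

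**Figure D2:**
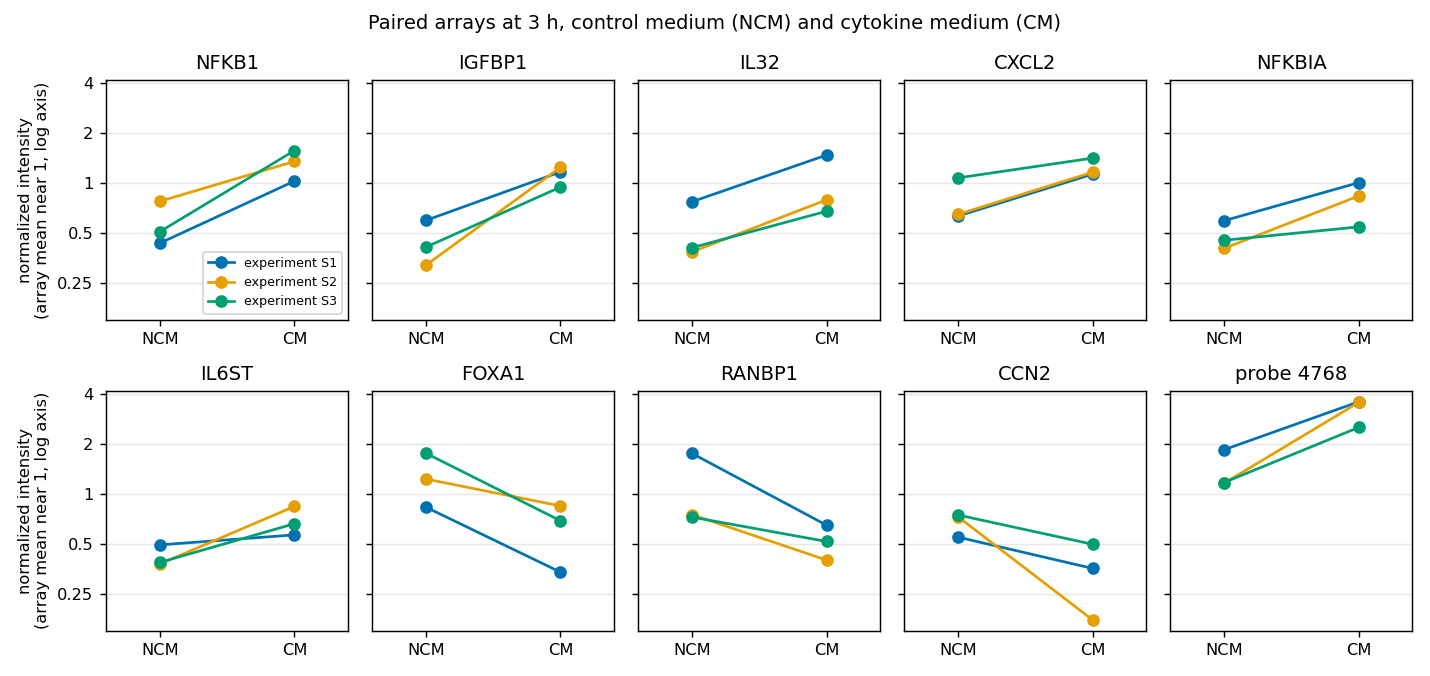
Normalized intensity at 3 h on a log axis for 9 genes and probe 4768, with NCM at the left and CM at the right of each panel; a line joins the cultures of 1 experiment. NFKB1, IGFBP1, CXCL2, IL6ST and probe 4768 have all CM arrays above all NCM arrays, RANBP1 and CCN2 have all of them below, and IL32, NFKBIA and FOXA1 overlap although their 3 lines run the same way.

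Upstream adaptors and kinases had 12 of 26 listed genes measured with a median of 0.03, and 0 had an unadjusted p under 0.05. TRAF6, the adaptor ligase of the interleukin-1 receptor route, had the highest value at 0.43 (SE 0.30), which was 0.80 without replicate 1 and 0.03 without replicate 3. TOLLIP, an adaptor that dampens the same route, had the lowest at -0.30 (SE 0.25), and -0.08 with neighbour centring. Other textbook NF-kappaB targets had 13 of 24 genes measured with a median of 0.17, 8 above 0, 4 higher in CM in all pairs (13.5% of all genes were) and 0 with an unadjusted p under 0.05. BIRC2, an inhibitor of apoptosis in tumor necrosis factor receptor signalling, led them with 0.41 (SE 0.21), which was 0.06 with neighbour centring, and PTX3, a pentraxin, was lowest with -0.54 (SE 0.35). SOD2, mitochondrial superoxide dismutase, had 0.08 (SE 0.19) with overlapping groups. The median of the targets was 0.03 with each array centred on its own median, where the median of all genes was -0.10.

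The promoters of 4 genes of this route that were higher in CM in 3 of 3 pairs are shown because NF-kappaB acts through kappaB sites. Each runs 5′ to 3′ on the strand of the gene from 250 bases before the start to 50 bases after it, from RefSeq on GRCh38.p14, with matches to the kappaB motif on either strand in capitals. Where RefSeq lists several starts, the promoter with most matches is shown. NFKB1 lies at chr4:102501109-102501408 on the plus strand, NFKBIA at chr14:35404700-35404999 on the minus strand, CXCL2 at chr4:74099146-74099445 on the minus strand and IL32 at chr16:3065153-3065452 on the plus strand.
NFKB1: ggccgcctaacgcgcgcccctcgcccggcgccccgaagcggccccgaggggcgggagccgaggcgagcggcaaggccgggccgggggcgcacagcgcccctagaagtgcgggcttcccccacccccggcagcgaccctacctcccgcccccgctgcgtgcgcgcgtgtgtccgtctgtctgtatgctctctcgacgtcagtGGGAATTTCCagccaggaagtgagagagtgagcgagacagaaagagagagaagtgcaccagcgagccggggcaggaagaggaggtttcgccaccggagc
NFKBIA: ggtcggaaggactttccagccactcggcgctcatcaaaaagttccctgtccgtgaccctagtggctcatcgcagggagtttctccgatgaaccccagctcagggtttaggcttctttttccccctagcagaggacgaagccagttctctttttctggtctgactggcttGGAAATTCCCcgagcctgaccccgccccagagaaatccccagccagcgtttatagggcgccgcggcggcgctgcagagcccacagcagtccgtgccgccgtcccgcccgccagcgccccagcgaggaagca
CXCL2: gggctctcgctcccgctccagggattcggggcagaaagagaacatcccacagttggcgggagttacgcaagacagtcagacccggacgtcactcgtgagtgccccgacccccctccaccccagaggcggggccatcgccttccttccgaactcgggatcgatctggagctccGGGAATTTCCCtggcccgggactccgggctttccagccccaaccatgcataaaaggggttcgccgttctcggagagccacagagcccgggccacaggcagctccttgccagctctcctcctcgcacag
IL32: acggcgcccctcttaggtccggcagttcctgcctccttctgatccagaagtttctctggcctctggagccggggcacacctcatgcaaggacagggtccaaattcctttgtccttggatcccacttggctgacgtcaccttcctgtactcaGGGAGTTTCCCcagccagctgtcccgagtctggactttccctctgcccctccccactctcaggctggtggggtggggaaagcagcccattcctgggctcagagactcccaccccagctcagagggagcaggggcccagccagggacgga
NFKB1 and NFKBIA hold 1 match each, starting 49 and 81 bases before the start. CXCL2 and IL32 hold 2 overlapping matches each, 1 per strand, from 78 bases before the start in CXCL2 and from 99 in IL32. The motif occurs in 3956 of 35116 listed promoters (11.3%) and in at least 1 promoter of 821 of the 4694 array genes that are listed (17.5%). Among the genes higher in CM chosen by the naming rule, 3 of the 7 listed hold it, namely NFKB1, IL32 and RCBTB1, and among those lower in CM 2 of 7 do, ADNP and CCN2. IGFBP1, ACSS3, BET1L, GSTT1, RANBP1 and SDC2 are not among the listed genes. The motif is in 6 of 9 inhibitor and feedback genes, namely BCL3, CYLD, NFKBIA, TANK, TNFAIP3 and TNIP1. TNIP1 had all CM arrays below all NCM arrays, so the holders were not all higher in CM. Of the listed chemokine genes, 6 of 14 hold it. A match is a run of letters in this window and does not show binding.

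Chemokines, the secreted proteins that attract leukocytes, had 19 of 42 genes measured with a median of 0.16. Of them 6 were higher in CM in all pairs (13.5% of all genes were), 2 lower (12.6% of all genes), 4 had all CM arrays above all NCM arrays (2.61% of all genes), and 2 had an unadjusted p under 0.05 with a positive difference (1.7% of all genes). CXCL2, a neutrophil attractant, read 1.13, 1.16 and 1.41 in CM and 0.632, 0.647 and 1.07 in NCM. Its groups did not overlap, although the S3 control came close to the S1 cytokine array. The difference was 0.69 (SE 0.22), and 0.43 with neighbour centring. CXCL9, an interferon gamma target, read 0.370, 0.345 and 0.377 in CM and 0.188, 0.241 and 0.287 in NCM, with a difference of 0.63 (SE 0.28) that was 0.28 with neighbour centring. Its groups did not overlap, and neither did those of CXCL3, a close relative of CXCL2, with 0.59 (SE 0.29), and CCL20, the ligand of CCR6. CCL20 read 1.80, 2.22 and 1.99 in CM and 0.852, 1.41 and 1.60 in NCM, a difference of 0.68 with an SE of 0.36. CXCL8, interleukin-8, had 0.48 (SE 0.27) and CXCL13, a B cell attractant, 0.66 (SE 0.34), each with CM higher in 3 of 3 pairs. The CXCL8 value was 0.30 without replicate 2. The lowest member was CCL8, a chemokine for monocytes, with -0.47 (SE 0.58), lower in CM in 3 of 3 pairs. The chemokine median was -0.05 over the members left without the dimmer 50% of probes. It was -0.01 with median centring, where the median of all genes was -0.10.

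Other cytokines had 21 of 53 genes measured with a median of 0.04, and 1 had an unadjusted p under 0.05. This was IL32, a pro-inflammatory cytokine, which read 1.48, 0.792 and 0.675 in CM and 0.771, 0.384 and 0.407 in NCM. CM was higher within each pair of IL32 by a similar ratio, and the groups overlapped because both S1 arrays were high. The difference was 0.90 (SE 0.23, limma adjusted p = 0.923), or 1.87-fold, and the SD of the 3 pair differences was 0.16. Without the pair block the SE of IL32 was 0.61. LTB, lymphotoxin beta, had the lowest value of the list at -0.37 (SE 0.50).

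Cytokine receptors had 29 of 63 genes measured with a median of -0.02. Of these, 7 were higher in CM in all pairs (13.5% of all genes were), 2 were lower (12.6% of all genes), and 4 had an unadjusted p under 0.05, all of them with a positive difference (1.7% of all genes). IL6ST encodes gp130, the signal-transducing chain of the interleukin-6 family receptors. It read 0.566, 0.842 and 0.661 in CM and 0.493, 0.378 and 0.386 in NCM, with no overlap. The IL6ST difference was 0.71 (SE 0.22), its other probe had 0.55, and the value was 0.49 without replicate 2. IFNGR2, a chain of the interferon gamma receptor, read 1.04, 0.907 and 0.751 in CM and 0.664, 0.505 and 0.563 in NCM, again without overlap. Its difference was 0.64 (SE 0.23). FAS, a death receptor, read 0.473, 0.256 and 0.914 in CM against 0.381, 0.160 and 0.462 in NCM, and the groups overlapped. It had 0.66 (SE 0.27). TGFBR1, a transforming growth factor beta receptor, had 0.43 (SE 0.20), and 0.05 with neighbour centring. Its other probe gave 0.02, and the arrays of the chosen probe ran from 0.197 to 5.88 within CM. IL13RA1, an interleukin-13 receptor chain, was the lowest at -0.66 (SE 0.33), with all CM arrays below all NCM arrays. IL6R, the specific chain of the interleukin-6 receptor, had -0.13 (SE 0.21).

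IL1R1, the signalling receptor of interleukin-1, gave values of opposite sign on its probes. The brighter probe had -0.28 (SE 0.24), higher in CM in 1 of 3 pairs. Probe 8544, singled out after its values were seen, read 0.393, 0.564 and 0.717 in CM and 0.260, 0.375 and 0.298 in NCM. All CM arrays of that probe lay above all NCM arrays, and its difference was 0.82 (SE 0.20, limma adjusted p = 0.914). It is 1 of 5 probes among the 20 with the smallest p that name 1 gene but are not its brightest probe. Of the other 4, the WNK1 probe had -1.09 (SE 0.26) with 0.55 on the brighter probe, and the EP300 probe had 0.80 (SE 0.20) with 0.17 on the brighter one. The SCAF11 probe had -0.69 (SE 0.18) against 0.32, and the ZNF622 probe had 1.15 (SE 0.30) against 0.02. The brighter probe had a smaller size or the opposite sign in each of these 5 genes. The 5 probes were taken for their small p, and that choice favours a larger size on them.

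JAK kinases, STAT3 and its targets had 21 of 25 genes measured with a median of 0.16, and 14 lay above 0. Higher in CM in all pairs were 8 of them (13.5% of all genes were), 2 were lower (12.6%), and 1, IL6ST, had an unadjusted p under 0.05. The median was -0.04 without replicate 2. CEBPD, the transcription factor C/EBP delta, read 0.456, 1.06 and 1.08 in CM and 0.415, 0.570 and 0.703 in NCM. The overlap of CEBPD came from the low S1 pair, and its difference was 0.55 (SE 0.30), with 0.22 for the mean of its probes. CEBPB, C/EBP beta, had 0.21 (SE 0.24) and was higher in CM in 3 of 3 pairs, but had -0.12 with neighbour centring. SOCS3, the feedback inhibitor of JAK kinases, had 0.11 (SE 0.41), JUNB 0.16 (SE 0.55), and STAT3 itself -0.14 (SE 0.20). The other STAT3 probes ran from -0.26 to 0.48. JAK2 was the lowest at -0.72 (SE 0.41), with all CM arrays below all NCM arrays, and had -0.30 without replicate 1.

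IGFBP1 encodes a liver-secreted binding protein of insulin-like growth factors. Its CM arrays read 1.17, 1.24 and 0.945 and its NCM arrays 0.595, 0.319 and 0.410. The groups did not overlap, and S2 had both the highest CM and the lowest NCM value. The difference was 1.38 (SE 0.29, 95% interval 0.78 to 1.98), or 2.60-fold, with a limma adjusted p = 0.462. The other IGFBP1 probe had 0.31, also higher in CM in 3 of 3 pairs, and the mean of the probes was 0.85. With array weights, which count S1 less, the adjusted p of IGFBP1 was 0.0214, and over all alternatives it ranged from 0.0214 to 1.00. The list of insulin-like growth factor binding, insulin signalling and gluconeogenesis genes had 21 of 31 genes measured with a median of -0.11, which was 0.03 without replicate 1 and 0.02 with neighbour centring, and 9 above 0. The lowest, FOXO3, a transcription factor held back by insulin signalling, read 0.661, 0.361 and 0.440 in CM and 0.619, 0.798 and 0.669 in NCM. Its S1 pair ran against the other pairs, and its difference was -0.55 (SE 0.21), which was -0.88 without replicate 1 and -0.26 without replicate 2.

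Metallothioneins, small proteins that bind zinc and copper, were higher in CM in all pairs for 5 of 5 measured genes out of 11 listed (13.5% of all genes were), with a median of 0.38 and 0 at an unadjusted p under 0.05. The 5 genes are not separate measurements, since MT2A and MT1G carry the same values on all 6 arrays, as do MT1E and MT1X, and MT1H shares those of the second MT1X probe. Such identical values occur in 7 sets of 14 probes at 3 h, and whether they were copied between probes was not tested. The shared MT2A and MT1G values were 0.942, 0.632 and 0.889 in CM and 0.619, 0.50 and 0.769 in NCM, a difference of 0.38 with an SE of 0.35 on the MT2A probe and 0.24 on the MT1G probe. The groups overlapped for MT2A and for each other metallothionein. The remaining MT2A probes, which carry values of their own, had 0.15 and 0.12. The median over the 5 genes lay between 0.29 and 0.49 under the alternatives that could be computed, and without the probes that carry identical values 0 of the 5 chosen probes are left.

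The MT2A promoter is shown for its metal response elements, to which the zinc sensor MTF1 binds. It lies at chr16:56608334-56608633 on the plus strand of GRCh38.p14 (RefSeq), and capitals mark the core TGCACNC or TGCGCNC on either strand.
MT2A: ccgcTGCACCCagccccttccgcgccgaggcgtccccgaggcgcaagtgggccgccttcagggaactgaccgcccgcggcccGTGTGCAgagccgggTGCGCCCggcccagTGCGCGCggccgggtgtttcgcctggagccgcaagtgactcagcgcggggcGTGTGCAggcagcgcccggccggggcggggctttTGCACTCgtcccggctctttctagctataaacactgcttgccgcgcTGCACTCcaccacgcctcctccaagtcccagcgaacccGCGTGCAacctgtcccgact
This window holds 8 matches, 5 on the strand of the gene and 3 on the other. At least 1 match occurs in 29.6% of all promoters of this length and at least 4 in 211 of them (0.601%). Of the metallothioneins, MT1H, MT1X and MT2A are listed and 3 of 3 have at least 4, where 45 of 4694 array genes (0.959%) do. The count of letters says nothing of whether these elements were in use at 3 h.

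Acute phase proteins that are known to rise had 24 of 34 genes measured with a median of 0.03. Of these, 7 were higher in CM in all pairs (13.5% of all genes were), 1 was lower (12.6%), 3 had all CM arrays above all NCM arrays (2.61%) and 0 had an unadjusted p under 0.05. C3, the central complement component, had the highest value, with 0.719, 0.660 and 0.525 in CM and 0.50, 0.491 and 0.348 in NCM. The CM arrays of C3 lay above its NCM arrays, with a difference of 0.52 (SE 0.30), 0.17 on its other probe and 0.23 with neighbour centring. SERPINA3, alpha-1-antichymotrypsin, had 0.20 (SE 0.19) and FGG, fibrinogen gamma, 0.34 (SE 0.33), both without overlap. The SERPINA3 value was -0.06 with neighbour centring. FGB, fibrinogen beta, had 0.43 (SE 0.26) and FGA, fibrinogen alpha, -0.21 (SE 0.22). The FGA value was 0.05 without replicate 1 and 0.11 with neighbour centring, while FGB and FGG stayed above 0 under the alternatives run. ORM1, orosomucoid, had 0.28 (SE 0.23) with CM higher in 3 of 3 pairs. HP, haptoglobin, had -0.08 (SE 0.24), CRP, C-reactive protein, 0.01 (SE 0.20), CFB, complement factor B, -0.14 (SE 0.22), and SERPINA1, alpha-1-antitrypsin, -0.33 (SE 0.22). SERPINA1 read 1.20, 2.52 and 3.37 in CM and 2.0, 2.95 and 3.40 in NCM, so its spread between experiments was wider than the difference within pairs, and its value was -0.02 with neighbour centring.

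Plasma proteins known to fall had 24 of 27 genes measured with a median of 0.02 and 0 at an unadjusted p under 0.05. ALB, albumin, had 0.11 (SE 0.18), TTR, transthyretin, 0.10 (SE 0.22), APOA1, apolipoprotein A-I, -0.03 (SE 0.26), and AFP, alpha-fetoprotein, -0.00 (SE 0.19). The 5 other ALB probes ran from -0.76 to 0.11, and the mean over ALB probes was -0.30. TF, transferrin, had the highest value at 0.32 (SE 0.32), and -0.13 for the mean of its probes. APOC1, an apolipoprotein of triglyceride-rich particles, had the lowest at -0.47 (SE 0.30), and -0.08 without replicate 2. Complement had 26 of 42 genes measured with a median of 0.04, from -0.31 in FCN2, a ficolin of the lectin route, to 0.66 in MASP2, its protease. MASP2 read 0.961, 0.614 and 0.393 in CM and 0.613, 0.425 and 0.227 in NCM, higher in every pair with overlapping groups, and had 0.09 for the mean of its probes. FCN2 had 0.00 without replicate 1.

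Among coagulation and fibrinolysis factors, 25 of 37 were measured with a median of 0.10. PLAT, tissue plasminogen activator, read 2.87, 1.94 and 1.82 in CM and 1.73, 1.16 and 1.68 in NCM. Its groups did not overlap, with a difference of 0.53 (SE 0.19). PLAUR, the urokinase receptor of the same system, had -0.82 (SE 0.26). It read 0.252, 0.302 and 0.257 in CM and 0.241, 0.681 and 0.660 in NCM, and S1 did not share the direction of the other pairs. Without replicate 1 it was -1.27.

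Antigen presentation genes had 19 of 30 measured with a median of 0.02 and 0 at an unadjusted p under 0.05. The immunoproteasome subunit PSMB10 and the proteasome activator PSME1 each had 0.37 with CM higher in 3 of 3 pairs, with SEs of 0.22 and 0.23, and PSME1 had 0.06 without replicate 3. B2M, the light chain of class I molecules, had -0.11 (SE 0.16) and HLA-B 0.03 (SE 0.27). HLA-DMA, a class II chaperone, was highest at 0.49 (SE 0.42) and PSME3, another proteasome activator, lowest at -0.39 (SE 0.28). Interferon-induced genes had 26 of 47 measured with a median of -0.03, and 1 gene in each direction had an unadjusted p under 0.05. WARS1, a tRNA synthetase induced by interferon gamma, read 0.915, 0.633 and 0.515 in CM and 0.575, 0.260 and 0.415 in NCM. The WARS1 difference was 0.76 (SE 0.30), and 0.49 without replicate 2. IFI44L, a type I interferon target, read 0.479, 0.670 and 0.904 in CM and 0.936, 1.07 and 1.01 in NCM. All CM arrays of IFI44L lay below its NCM arrays, with -0.60 (SE 0.23), the opposite sign to WARS1.

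**Figure D3:**
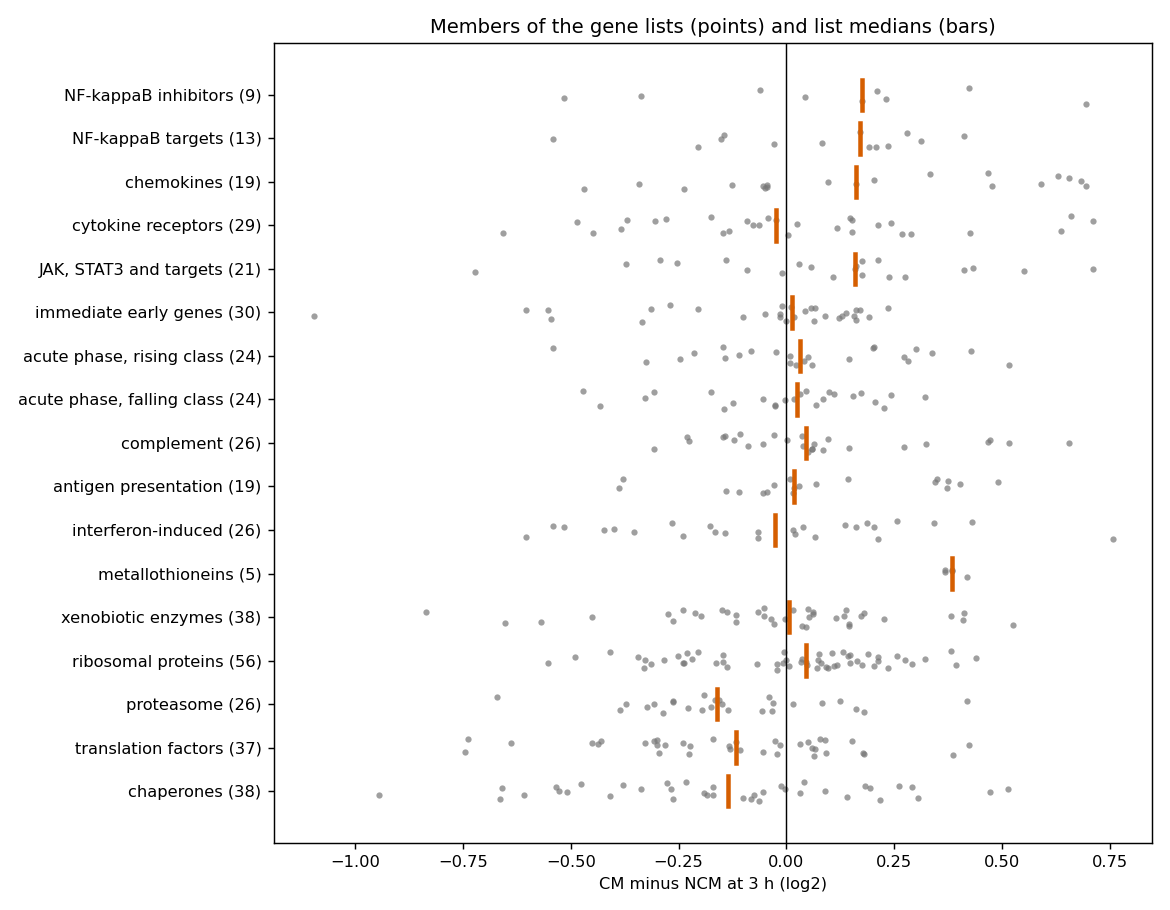
CM minus NCM at 3 h (log2) for the measured genes of the gene lists, with the number measured in brackets; points are genes and bars are list medians. The medians lie between -0.16 for the proteasome and 0.38 for the 5 metallothioneins, and the members of each other list shown spread to both sides of 0.

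The plot of the gene lists shows that members scattered on both sides of 0 in each group plotted except the metallothioneins. Over all 5631 genes, 2808 (49.9%) lay above 0 and the median was -0.00. With each array centred on its own median in place of quantile normalization, 1965 (34.9%) lay above 0 and the median of all genes was -0.10, so a list median is best read against that of all genes on the same scale.

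Liver transcription factors had 11 of 27 genes measured with a median of -0.15, which was 0.20 when the dimmer 50% of probes were left out. The FOXA1 probe was among those left out there, so the medians of -0.15 and 0.20 cover different genes. It was also left out with the dimmest 25% of probes, so its intensity was low over the whole series. FOXA1, a pioneer factor that opens chromatin at liver enhancers, read 0.337, 0.847 and 0.689 in CM and 0.832, 1.23 and 1.76 in NCM. CM was lower within each pair of FOXA1, and 1 CM array lay just above the lowest NCM array. The difference was -1.07 (SE 0.30), so the NCM level was 2.09-fold that of CM. CEBPD, given above, had the highest value of this list.

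Immediate early genes, which respond within minutes to growth factors and stress, had 30 of 46 measured with a median of 0.01. Of these, 0 had an unadjusted p under 0.05 with a positive difference and 3 with a negative one, against 92 of 5631 genes (1.63%). CCN2, connective tissue growth factor, read 0.355, 0.173 and 0.497 in CM and 0.549, 0.728 and 0.747 in NCM. All CM arrays of CCN2 lay below its NCM arrays, with -1.09 (SE 0.37), which was -0.61 without replicate 2. ID2, an inhibitor of basic helix-loop-helix factors, read 0.273, 0.482 and 0.524 in CM and 0.675, 0.565 and 0.635 in NCM, with -0.60 (SE 0.24) and no overlap. EGR1, a zinc finger factor, had -0.55 (SE 0.23) with overlapping groups. Without replicate 1, ID2 had -0.25 and EGR1 -0.28. MYC had -0.01 (SE 0.26), ATF3 -0.00 (SE 0.26), and the highest member ID3, a relative of ID2, 0.24 (SE 0.31), with -0.10 without replicate 1.

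The other genes lower in CM under the naming rule have various roles. RANBP1, a regulator of the nuclear transport GTPase Ran, read 0.648, 0.399 and 0.517 in CM and 1.76, 0.751 and 0.725 in NCM. The groups of RANBP1 did not overlap, and the S1 control stood highest. Its difference was -0.95 (SE 0.26). RDH14, a retinol dehydrogenase, read 0.291, 0.322 and 0.380 in CM and 0.438, 0.506 and 0.569 in NCM. The 3 pairs of RDH14 were nearly parallel, with an SD of 0.04 between their differences, and the fitted value was -0.61 (SE 0.17). GSTT1, a glutathione transferase, had -0.84 (SE 0.24), with 0.12 on its other probe. SDC2, the heparan sulfate proteoglycan syndecan, had -0.76 (SE 0.24), with all CM arrays below all NCM arrays. TTC1 had -0.62 (SE 0.20), while its other probes ran from -0.28 to 0.32. ZNF148, a zinc finger factor, had -0.66 (SE 0.22), and ADNP, a homeobox protein, had -0.80 (SE 0.27), both with overlap. ADNP had -0.35 without replicate 1, and ZNF148 had -0.42 with neighbour centring.

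The other genes higher in CM under the rule lie outside the cytokine lists. GCNT1, which branches O-linked glycans, read 0.377, 0.624 and 0.498 in CM and 0.213, 0.352 and 0.275 in NCM. The pair differences of GCNT1 had an SD of 0.02, with a fitted value of 0.84 (SE 0.24). BBS2, a subunit of the ciliary BBSome, had 1.15 (SE 0.32), and its S1 control was at the floor of 0.0813, and it was 0.51 with a floor at the 10th percentile. BET1L, a SNARE protein of the Golgi, had 0.82 (SE 0.23), and 0.41 without replicate 1. ACSS3, a mitochondrial acyl-CoA synthetase, had 0.77 (SE 0.22) with -0.14 on its other probe. RCBTB1 had 0.83 (SE 0.24), which was 0.03 with that floor. TAF12, a subunit of the general factor TFIID, had 0.74 (SE 0.23), and 0.36 without replicate 2. TMEM30B, an accessory chain of lipid flippases, had 0.76 (SE 0.24). It had 0.27 with median centring, where the median of all genes was -0.10. The S3 control of TMEM30B was at the floor as well. ABCA1, the cholesterol exporter, read 0.501, 0.681 and 0.533 in CM and 0.296, 0.305 and 0.353 in NCM, without overlap, and had 0.84 (SE 0.29). It led the lipid list, of which 23 of 48 genes were measured with a median of -0.03, and INSIG1, a sterol-sensing brake on lipid synthesis, was lowest with -0.52 (SE 0.33).

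Chaperones had 38 genes measured with a median of -0.14. Of these, 12 were lower in CM in all pairs (12.6% of all genes were) and 5 higher (13.5%), and 4 had an unadjusted p under 0.05 with a negative difference (1.63% of all genes). The CCT subunits, which form the ring chaperonin that folds actin and tubulin, were singled out after their values were seen. All 6 measured subunits lay below 0, with a median of -0.52, and 4 were lower in CM in every pair. CCT3 read 0.597, 0.831 and 0.764 in CM and 1.30, 0.995 and 1.16 in NCM. CCT7 read 0.656, 0.466 and 0.533 in CM and 0.949, 0.673 and 0.774 in NCM. Neither gene overlapped between the media, with -0.66 (SE 0.28) for CCT3 and -0.53 (SE 0.24) for CCT7. CCT4 had -0.51 (SE 0.31), CCT5 -0.53 (SE 0.36), CCT2 -0.27 (SE 0.29) and CCT6A -0.10 (SE 0.20). Without replicate 1 CCT3 had -0.43. DNAJB6, an HSP70 cochaperone, had -0.61 (SE 0.26), and -0.27 without replicate 1. DNAJC2, a ribosome-bound cochaperone, had -0.94 (SE 0.42), with 0.189 in the S1 cytokine array against 1.21 in its control and near-equal values in S2 and S3. It was -0.08 without replicate 1. DNAJB1, another HSP70 cochaperone, was highest at 0.51 (SE 0.31).

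Translation factors had 37 genes measured with a median of -0.12, 9 lower in CM in all pairs (12.6% of all genes were) and 3 higher (13.5%). EIF3D, which binds the mRNA cap, read 0.411, 0.396 and 0.314 in CM and 0.559, 0.636 and 0.679 in NCM. All CM arrays of EIF3D lay below its NCM arrays, with -0.75 (SE 0.22). EIF4E, the main cap-binding protein, had -0.74 (SE 0.26) with overlapping groups, and EIF4G2, a scaffold of initiation, was highest at 0.42 (SE 0.28). Constitutive proteasome subunits had 26 genes measured with a median of -0.16, 6 above 0 and 0 at an unadjusted p under 0.05. PSMA7 was lowest at -0.67 (SE 0.42) and PSMD11 highest at 0.42 (SE 0.28), with 0.08 without replicate 3. The proteasome median was -0.01 without replicate 2, and that of translation factors was -0.02 without replicate 1. Ribosomal proteins had 56 genes measured with a median of 0.05, with pair medians of 0.50, -0.07 and -0.19 in S1, S2 and S3. These pair medians did not share a sign.

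In the secretory pathway, 40 of 61 genes were measured with a median of -0.02. KDELR1, the receptor that returns proteins to the endoplasmic reticulum, read 1.41, 0.670 and 0.655 in CM and 0.609, 0.422 and 0.476 in NCM. Its groups did not overlap, with 0.78 (SE 0.34). RPN2, a subunit of the oligosaccharyltransferase, had -0.58 (SE 0.25), and SEC31A, a coat protein of export vesicles, -0.81 (SE 0.39), each with all CM arrays below all NCM arrays. SEC31A had -0.38 with neighbour centring. Enzymes of xenobiotic metabolism had 38 of 59 genes measured with a median of 0.01, 1 higher (13.5% of all genes were) and 7 lower (12.6%) in all pairs, and 3 with an unadjusted p under 0.05, all negative (1.63% of all genes). These were GSTT1, CYP2E1, the ethanol-inducible cytochrome, at -0.65 (SE 0.26), and GSTZ1, a glutathione transferase of tyrosine breakdown, at -0.45 (SE 0.20). The other CYP2E1 probes had -0.05 and -0.13, and the value was -0.27 without replicate 1. CYP7B1, an oxysterol hydroxylase, was highest at 0.53 (SE 0.34), but had -0.04 without replicate 1.

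Among respiratory chain and ATP synthase subunits, 66 genes had a median of -0.03, with 8 higher (13.5% of all genes were) and 10 lower (12.6%) in all pairs. The 3 with an unadjusted p under 0.05 were NDUFS6 at -0.81 (SE 0.32), NDUFA5 at -0.63 (SE 0.29) and ATP5MC2 at -0.56 (SE 0.27), and NDUFA6 was highest at 0.52 (SE 0.30), with 0.09 without replicate 2. NDUFS6 was higher in CM in S1 and lower in S2 and S3, and its other probe had 0.24. Among 26 cytoskeletal genes, with a median of -0.00, EZR, which links actin to the membrane, had -0.66 (SE 0.23) without overlap, and its 4 other probes ran from -0.49 to -0.10. ARPC3, an actin-nucleating subunit, was highest at 0.49 (SE 0.29). Among 29 cell cycle genes, with a median of 0.05, POLA1, DNA polymerase alpha, had -0.69 (SE 0.29), and -0.32 without replicate 2, and MCM6, a helicase subunit, was highest at 0.31 (SE 0.18), with 0.06 with neighbour centring.

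The smallest p at 3 h belonged to probe 4768, which the annotation pairs with no gene and which was singled out after its values were seen. It read 3.61, 3.57 and 2.52 in CM and 1.85, 1.16 and 1.17 in NCM. Every CM array of probe 4768 lay above every NCM array, at a ratio of 2.34 between the media. The difference was 1.23 (SE 0.20, 95% interval 0.82 to 1.64) and missed the threshold with an adjusted p = 0.0546. It passed under 5 alternatives, with an adjusted p = 0.0210 with a higher floor, 0.0257 and 0.0131 without the dimmest 25% and 50% of probes, 0.00258 with an intensity trend and 0.00276 with array weights. It did not pass without the pair block (adjusted p = 1.00), with the values as deposited (0.433) or without S1, S2 or S3 (0.121 to 0.633), nor with median centring (1.00), neighbour centring (0.129) or 3 h fitted alone (0.887). Its difference at the other times was -0.06 at T0, 0.31 at 15 min, 0.14 at 30 min, 0.29 at 1 h, 0.60 at 6 h and 0.35 at 16 h.

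The 3 h differences were set beside those of the other times, which come from separate arrays. Over all probes, which are not independent, they correlated at 0.110 with those at T0, 0.059 with 1 h and 0.107 with 6 h. The values were -0.145 for 15 min, -0.059 for 30 min and 0.061 for 16 h. The correlation with 1 h or 6 h was thus no higher than that with the start, and the genes that follow are a choice. NFKB1 had 0.07 at T0, 0.06 at 15 min, -0.22 at 30 min, 0.68 at 1 h, 0.32 at 6 h and 0.04 at 16 h. IGFBP1 had 1.02 at 1 h, before its 1.38 at 3 h, and 0.67 at 6 h, and it was higher in CM in 3 of 3 pairs at all 3 times. NFKBIA and CXCL2 had their largest values at 1 h, 1.23 and 0.97, and 0.11 each at 6 h. IL32 had -0.29 at 1 h, 1.24 at 6 h and 0.92 at 16 h, so 3 h was the earliest time at which it was higher in 3 of 3 pairs. CCL20 had 0.41 at 1 h and 1.01 at 6 h. FOXA1 had -0.46 at 1 h and -0.04 at 6 h, and CCN2 had -0.39 and -0.11 at the same times.

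**Figure D4:**
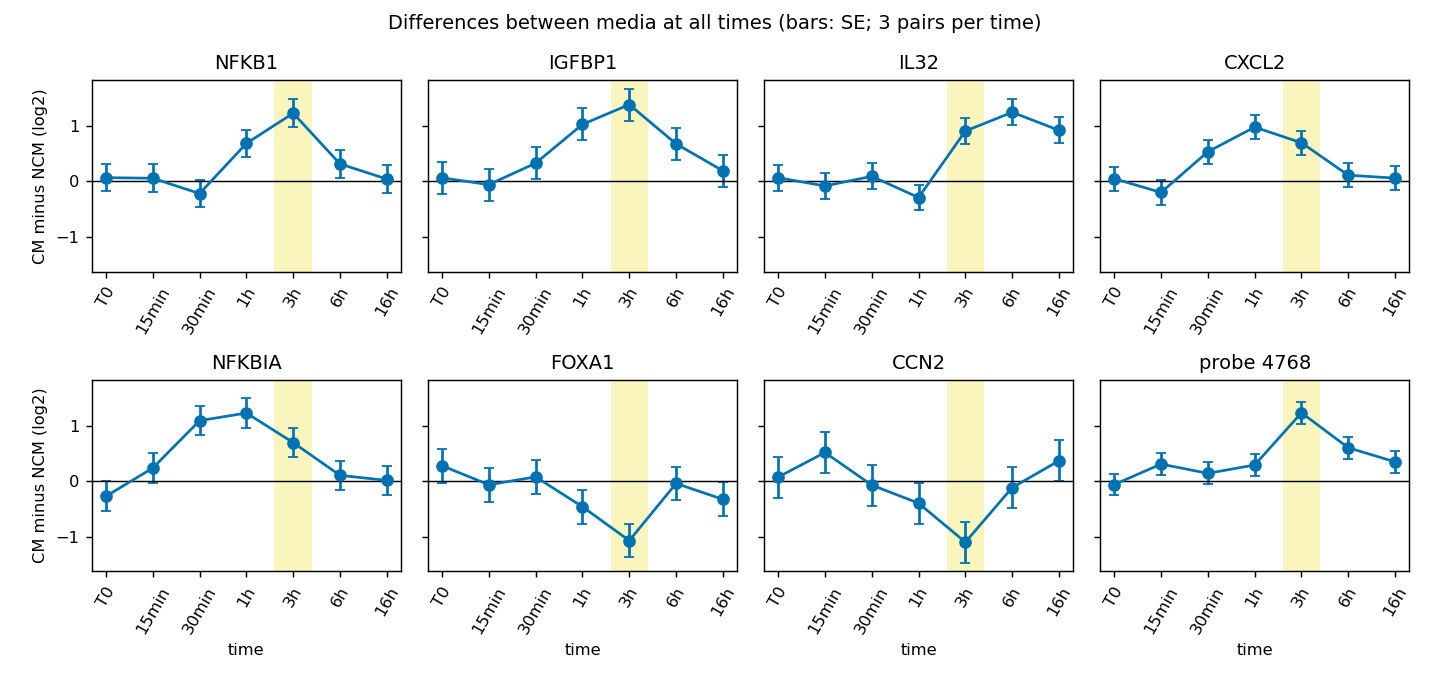
CM minus NCM (log2) at the 7 times for 7 genes and probe 4768, with bars for the SE from limma and 3 pairs per time; the shaded band marks 3 h. NFKB1, IGFBP1 and probe 4768 have their highest value at 3 h, NFKBIA and CXCL2 at 1 h and IL32 at 6 h, while FOXA1 and CCN2 have their lowest at 3 h.

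These patterns over time were not shown to differ between times. For the 3 h difference minus that at T0, the fit gave 0 calls among 13824 probes (0%), and 385 (2.79%) had an unadjusted p below 0.05. NFKB1 had 1.16 (SE 0.35), IGFBP1 1.32 (SE 0.40) and FOXA1 -1.34 (SE 0.43) in this contrast, each with an adjusted p = 1.00. For 3 h minus 1 h, 0 probes were called (0%) and 442 (3.2%) had an unadjusted p under 0.05. IL32 had 1.19 there (SE 0.33), and NFKB1 0.54 (SE 0.35). For 6 h minus 3 h, 0 probes were called (0%) and 419 (3.03%) had an unadjusted p below 0.05, and NFKB1 had -0.91 (SE 0.35).

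Markers of cell types were compared between the media, which does not test the identity of the cells. Of 19 hepatocyte and hepatoma markers, 17 were measured, among them ALB at 3.07 to 4.39 and AFP at 4.48 to 7.08 at 3 h. Their summed intensity was 36.8 to 40.7 in CM and 35.3 to 41.2 in NCM. Macrophage markers, 7 of 16 measured, summed to 5.49 to 8.93 in CM and 6.60 to 8.09 in NCM, and 0 of them had an unadjusted p under 0.05. The summed ranges of CM and NCM overlapped as well for lymphocyte (4 of 17 measured), endothelial (7 of 11), stromal (9 of 14), cholangiocyte (4 of 9) and erythroid markers (9 of 10). The values come without detection calls, so a low level cannot be told from background.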

How the data were processed

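Messenger RNA abundance was measured by array in 42 Hep3B cultures, and the 36 arrays of other times served the estimate of the spread and the comparisons between times. The authors deposited 1 linear intensity per probe and array, with a mean near 1 on every array and at most 2.12% of values below 0. No source used here gives the array type, the background correction or the scaling behind these intensities. They were quantile normalized on the linear scale, and a floor at the common 1st percentile (0.0813) was applied before taking log2. The number of arrays limits the precision.

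Tests used limma 3.58.1 in R 4.3.3 on all arrays, with a block for every pair and a separate CM effect at each time (14 residual degrees of freedom). Moderated two-sided tests were corrected over the 13824 probes after Benjamini and Hochberg, and an adjusted p under 0.05 counted as a call. The labels give the pairs; in the values, the deviations of partners from the mean of their group had r between 0.308 and 0.754 in the 21 pairs. With 3 pairs an exact permutation test cannot give a p below 0.25, so none was used. Of the probes, 7336 name 1 gene in the array annotation (7322 matched by Entrez ID to RefSeq), 576 name several and 5912 none, giving 5631 genes.

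The naming rule took the 10 genes in each direction with the smallest p among those with 3 pairs in that direction, the members of each list with an unadjusted p under 0.05, its highest and lowest member, and fixed genes. The members, fixed genes and 39 lists were chosen with earlier results of these data known. The steps were run on simulated data with independent noise for each probe and the same spread on every array. Those data lack the correlation of neighbouring probes and the wider scatter of S1, so they do not test the effect of either. The 15 alternatives left out the block, used deposited intensities without normalization or centred each array on its median, and also covered a floor at the 10th percentile, leaving out the dimmest 25% or 50% of probes, 3 h alone, an intensity trend with robust prior, array weights, averaged probes per gene, neighbour centring (5 probe numbers on each side), leaving out probes with identical values, and leaving out each replicate.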

Additional observations from a re-analysis of the deposited data

How the results depend on the processing

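The count of probes called at 3 h was 0 without the replicate block, on deposited intensities, with median centring, with 3 h fitted alone, with probes averaged per gene, with neighbour centring and without probes of identical values, and 0 to 0 when 1 replicate was left out. It was 1 with a floor at the 10th percentile, 1 without the dimmest 25% of probes, 1 without the dimmest 50%, 1 with an intensity trend and robust prior, each time probe 4768, and 2 with array weights, probe 4768 and IGFBP1. Without the block, 107 probes had an unadjusted p under 0.05 in place of 450; the block changed no call. The 3 differences between times gave 0 calls under each alternative that could be fitted, and 3 h alone gives none of them. Of 134 genes and probes followed over the alternatives, 27 took the other sign at least once, and 0 of the 51 chosen by the rule for direction or by an unadjusted p under 0.05 did. That 0 is in large part set by the choice. A gene taken for 3 of 3 pairs in 1 direction cannot turn when 1 replicate is left out. Leaving out the block, 3 h alone and the intensity trend do not change a difference, only its SE and p. Of 584 medians of gene lists under alternatives, 66 moved by more than the SD of the pair medians. The small number of pairs, the scatter of S1 and the missing detection calls limit what can be seen at 3 h.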
